A study of Rattus norvegicus with 6 samples.

Results

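The ribosomal protein genes are 67 of the 27321 features counted in rat kidney inner medulla, and they were chosen by name: Rps or Rpl followed by a number with at most one letter of a, x, y or l, or by a, p0, p1 or p2, without the Rps6k kinases. Of the 67 members, 27 encode proteins of the small (40S) subunit and 40 those of the large (60S) subunit, and no name occurs at more than 1 locus. Libraries were made from the IM tip, the terminal part of the inner medulla, of male Sprague-Dawley rats of 3 months, with 3 control rats injected with vehicle and 3 rats injected into the tail vein with streptozotocin (STZ) at 62.5 mg/kg, a drug that destroys pancreatic beta cells. All tissue was taken at day 15 after injection. The labels number the rats but say nothing more of how replicates were obtained, so p-values measure the spread between these samples. The study used RNA-seq to ask whether genes of protein glycosylation and of the sugar-binding galectins differ in the inner medulla in diabetes. The values are normalized counts, the uniquely mapped reads of a gene divided by 1 size factor per library. In bulk tissue, fewer cells of a type and less RNA per cell cannot be told apart.

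A ribosome is built from ribosomal RNA and a nearly fixed set of proteins, so cells keep the messages of these proteins in step with each other. Most of the messages begin with a C followed by a run of pyrimidines, the 5′ terminal oligopyrimidine (TOP) motif, through which mTOR signalling and the protein Larp1 set their translation. Myc and mTOR are the best known regulators of ribosome production, and free ribosomal proteins such as Rpl5 and Rpl11 bind Mdm2 and stabilise p53. In diabetes the kidney grows, and growth is tied to protein synthesis.

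Between 3412311 reads (control 3) and 5575171 reads (control 2) were counted on genes, and 108799 to 211814 of them lay on ribosomal protein genes. The collecting duct was well represented: 7 of its 8 marker genes were found, with a summed level of 32773 to 54600 normalized counts in control and 42665 to 81715 in STZ libraries. All 8 leukocyte markers were found and none was at 0, with sums of 1143, 4397 and 3141 in control 1, 2 and 3 and of 2481, 3410 and 4278 in STZ 1, 2 and 3. Control 1 was thus the lowest library for leukocyte markers and, as given next, the highest for ribosomal protein genes. All 3 red cell markers found were also highest in control 1, with sums of 6626, 3165 and 3407 in control 1, 2 and 3 and of 1529 to 3618 in STZ libraries. The part of these markers in the results was not tested. Between the groups, 2 of 3 thick ascending limb markers, 1 of 4 endothelial and 1 of 3 red cell markers were lower in STZ and 2 of 4 urothelial markers higher (limma, adjusted p under 0.05), with thick ascending limb sums of 1099 to 1886 in control and 210 to 597 in STZ libraries and urothelial sums of 79.3 to 124 and 420 to 501; their part in the results was not tested either. Every control library carries the same lane in its column name and the STZ libraries carry other lanes, so lane and treatment cannot be told apart.

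The ribosomal protein genes moved together from library to library, and the libraries that stood apart were control libraries. They took 4.55%, 3.67% and 3.19% of the reads on genes in control 1, 2 and 3, and 3.28%, 3.09% and 3.64% in STZ 1, 2 and 3. Control rats averaged 3.80% ± 0.689 (SD, n = 3) and STZ rats 3.33% ± 0.279 (SD, n = 3), a difference smaller than the spread between control replicates. Of the 67 members, 65 passed a filter of a mean of 5 normalized counts over the 6 libraries. Relative to the mean of each gene over the libraries, the median of these 65 lay at 0.57, 0.02 and −0.39 on the log2 scale in control 1, 2 and 3, and at 0.02, −0.24 and −0.07 in STZ 1, 2 and 3. Over all 13486 features tested the same medians lay between 0.00 and 0.02. The SD between the medians of the control libraries was 0.481 on the log2 scale, against 0.133 between those of the STZ libraries.

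**Figure D1:**
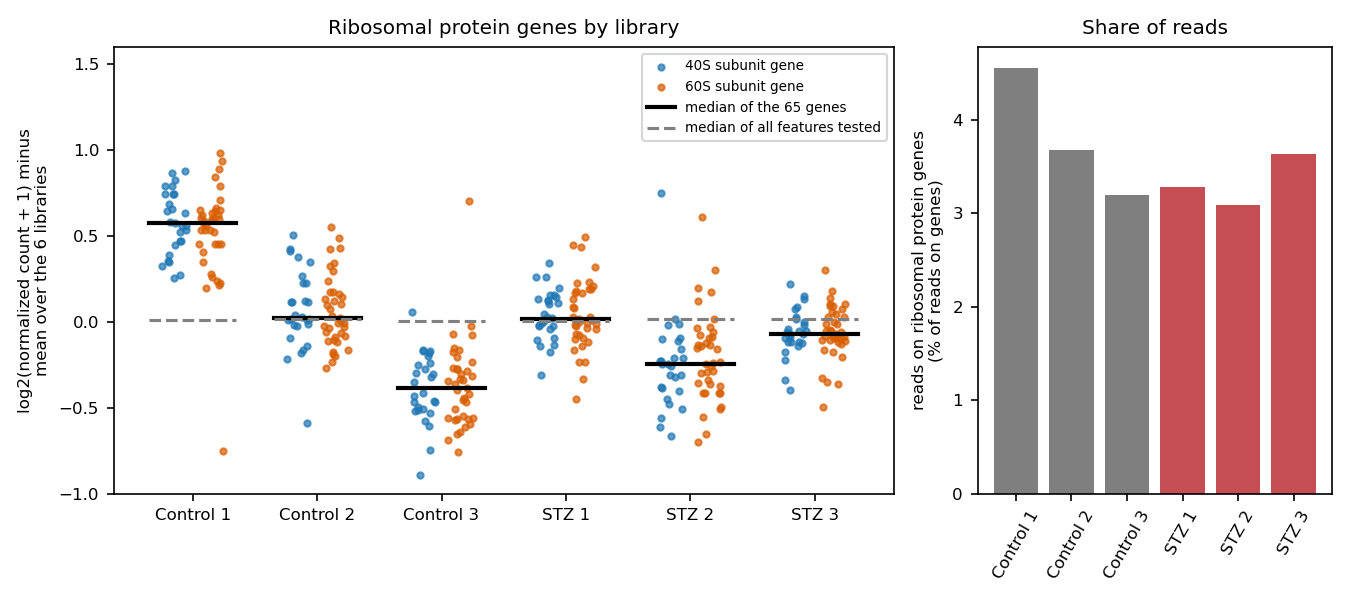
Left, the log2 deviation of each of the 65 ribosomal protein genes tested from its own mean over the 6 libraries (points), with their median (black line) and the median of all features tested (dashed line), for 3 control and 3 STZ libraries. Right, the share of the reads on genes that lay on these genes. Control 1 is highest in both panels, with a median deviation of 0.57 and a share of 4.55%.

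The pattern was shared by nearly the whole family. Control 1 held the highest value of 58 of the 65 genes, which it did for 22.7% of all features tested, and control 3 the lowest value of 43, against 19.5% of all features. Over the 2080 pairs of members, the median Pearson correlation across the 6 libraries was 0.81, and 4.18% of the pairs had a negative one. For 34 of the 65 genes the correlation with the family median was above 0.9, as it was for 1.90% of all features. These correlations describe 6 libraries that share their depth and scaling. With the libraries set to equal totals, control 1 was the highest library for 51 of the 65 genes, with a median of 0.42, but the lowest median was that of STZ 2, at −0.28, and control 3 lay at −0.21.

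**Figure D2:**
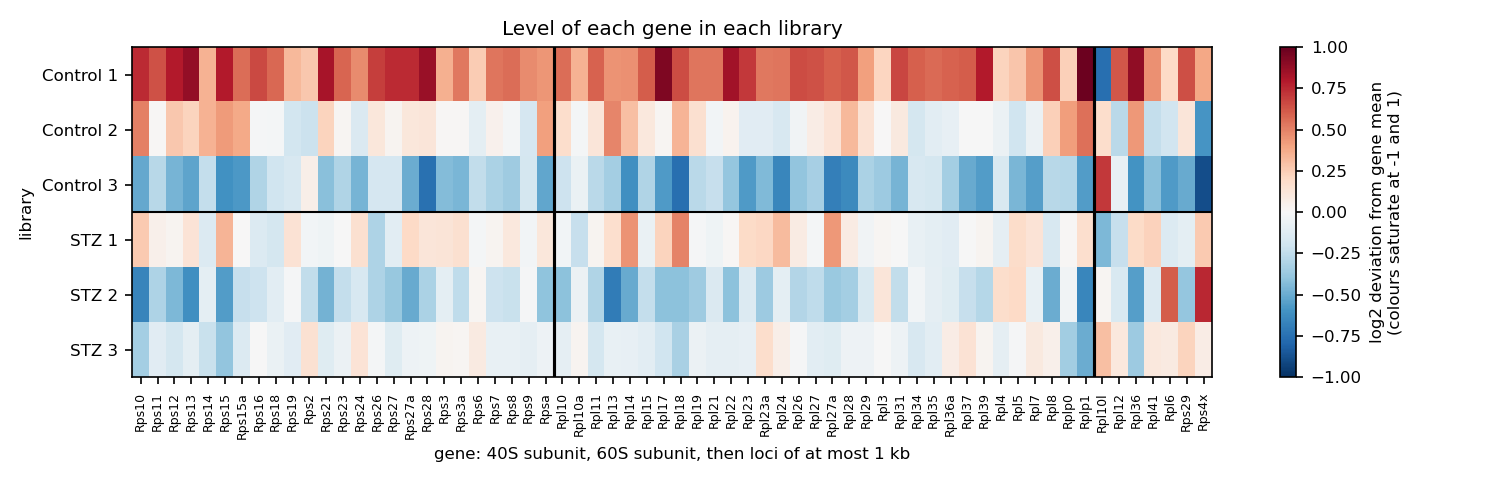
Log2 deviation of 64 of the 65 genes from their mean over the 6 libraries, with libraries in rows and genes in columns (40S genes, 60S genes, then loci of at most 1 kb); red is above and blue below the mean. The row of control 1 is red for nearly every gene longer than 1 kb and that of control 3 is blue. Over the 58 genes tested of that length, the medians of the 3 STZ libraries lie between those of control 1 and control 3. Gene by gene they do not always, and STZ 2 is the lowest library for 14 of the 58.

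No ribosomal protein gene passed the test between STZ and control rats. By limma, 0 of the 65 had an adjusted p under 0.05, where 2.1% of all features tested did, and 0 had an unadjusted p under 0.05, where 14.7% of all features did. With edgeR the counts were 0 and 0, against 2.13% and 15.0% of all features, and with DESeq2 0 and 2, against 4.44% and 13.1%. The control and STZ values overlapped for every one of the 65, whereas 20.3% of all features had groups that did not overlap. The fitted log2 fold change was below 0 for 53 of the genes and above 0 for 12, with a median of −0.18, against a median of 0.01 over all features, 49.5% of which were below 0. In the deposited normalized counts this direction rested on 1 library, control 1. The share of reads on the family stayed lower in STZ when control 1 was left out. A fit at equal library totals without control 1 was not run. Without control 1 the median was 0.05 and 23 of the 65 fold changes were below 0, and without control 3 it was −0.40 with 61 below 0, where 0 members had an adjusted p under 0.05 (2.61% of all features) and 19 an unadjusted one (17.7% of all features). The SE of a single gene lay between 0.19 and 0.39 on the log2 scale, with a median of 0.26. For 56 of the 65 genes the 95% interval of the difference lay within a 2-fold change either way. Differences inside these intervals remain possible with 3 rats a group.

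**Figure D3:**
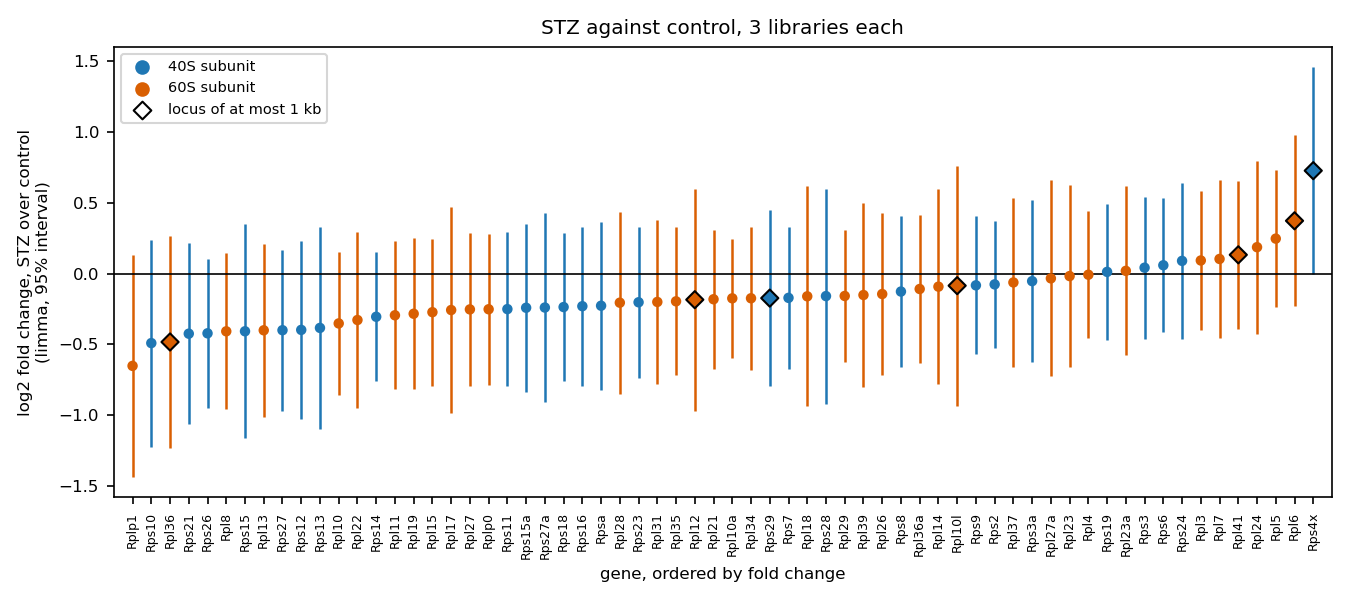
Log2 fold change of STZ over control for 64 of the 65 genes with the 95% interval of the limma fit, ordered by size; blue marks the 40S and orange the 60S subunit, and diamonds mark loci of at most 1 kb. The points run from −0.65 for Rplp1 to 0.73 for Rps4x, and every interval includes 0.

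Both subunits gave the same picture. The 27 genes of the 40S subunit tested had a median log2 fold change of −0.23, with 22 below 0, and the 38 of the 60S subunit a median of −0.17, with 31 below 0. The median deviation in control 1 was 0.57 for the 40S and 0.58 for the 60S genes, and in control 3 it was −0.42 and −0.37.

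Among the 40S genes, Rps6, the protein phosphorylated by S6 kinase downstream of mTOR, was one of the steadiest members. It lies on chromosome 5 of rn4 at chr5:106165634-106168502 and had 7043, 5529 and 4971 normalized counts in control 1, 2 and 3 and 5828, 5978 and 6278 in STZ 1, 2 and 3. The 3 STZ values lay inside the range of the control values, and the log2 fold change was 0.06 ± 0.21 (SE, limma) with an adjusted p of 0.954. Rps19, a protein needed to mature the small subunit and mutated in Diamond-Blackfan anaemia, had 6075, 4268 and 4320 in control and 5360, 4789 and 4472 in STZ libraries. The groups overlapped here as well, with a log2 fold change of 0.01. Rps3, which sits at the entry of the mRNA channel, had 3626, 2857 and 2096 in control and 3099, 2644 and 2890 in STZ libraries, a log2 fold change of 0.04. Rps2, a neighbour of Rps3 at that channel, was counted at 245, 175 and 211 in control and 200, 171 and 226 in STZ libraries, and its fold change was −0.08.

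Other 40S genes varied more, with control 1 at the top each time. Rps10 (chr20:5849320-5853895) had 324, 275 and 135 normalized counts in control and 231, 122 and 153 in STZ libraries, a log2 fold change of −0.49 ± 0.33 (SE, limma) with an adjusted p of 0.569. Rps15, a protein near the decoding site, had 1296, 1005 and 491 in control and 949, 507 and 568 in STZ libraries, with −0.41. In both genes, replicate 1 was the highest library of its own group. Rps21 (chr3:169311203-169312233) had 5056, 3331 and 2135 in control and 2770, 2047 and 2620 in STZ libraries, a log2 fold change of −0.42 ± 0.29 (SE, limma) with an adjusted p of 0.577. Rps26, which contacts the mRNA at the exit channel, had 4103, 2756 and 2267 in control and 2058, 2059 and 2514 in STZ libraries, so that STZ 3 lay above control 3 and the other STZ libraries lay below all control libraries (log2 fold change −0.42, adjusted p = 0.463).

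Rps27 and Rps27a are different genes, the second being made as a fusion to ubiquitin. Rps27 had 8376, 5093 and 4442 normalized counts in control and 4658, 3843 and 4606 in STZ libraries, a log2 fold change of −0.40 ± 0.26 (SE, limma) with an adjusted p of 0.547. Its control 1 value stood far above the other libraries. Rps27a had 3659, 2364 and 1547 in control and 2504, 1537 and 2110 in STZ libraries, with a fold change of −0.24. Rpsa, a 40S protein also known as the laminin receptor, had 2137, 2090 and 1096 in control and 1694, 1190 and 1515 in STZ libraries, with −0.23; control 3 was its lowest library.

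The stalk of the 60S subunit, which recruits the elongation factors, was represented by Rplp0 and Rplp1. Rplp1 (chr8:66046176-66047536) had the lowest fold change of the family and the widest spread over the 6 libraries, an SD of 0.675 on the log2 scale. It had 2453, 1823 and 843 normalized counts in control and 1394, 789 and 881 in STZ libraries, means of 1706 ± 812 and 1021 ± 326 (SD, n = 3 each). The log2 fold change was −0.65 (SE 0.36, 95% interval −1.44 to 0.13, adjusted p = 0.444 by limma), and control 3 lay within the STZ values. Without control 1 it was −0.32 and without control 3 −1.09. Its partner Rplp0 (chr12:42315765-42318750) was one of the few genes with the highest value in control 2. It had 7046, 7997 and 4908 in control and 6011, 5815 and 4682 in STZ libraries, a log2 fold change of −0.25 (adjusted p = 0.732).

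Of the 60S proteins that bind Mdm2, Rpl5 was higher in STZ and Rpl11 lower by fitted sign, and neither passed. Rpl5 (chr14:2397639-2404072) had 2536, 1826 and 1527 normalized counts in control and 2373, 2400 and 2076 in STZ libraries, so that only control 1 exceeded the STZ values. Its log2 fold change was 0.25 ± 0.22 (SE, limma) with an adjusted p of 0.701. Rpl11 had 3429, 2478 and 1882 in control and 2320, 1851 and 2018 in STZ libraries, with −0.29 (adjusted p = 0.658). Rpl23 had 3784, 2137 and 1562 in control and 2643, 2110 and 2183 in STZ libraries, with −0.02; control 1 was its top library and the STZ values filled the middle of the control range.

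Rpl4, which lines the exit tunnel, had 4804, 3934 and 3695 normalized counts in control and 3851, 4629 and 3853 in STZ libraries, with an SD of 0.158 over the 6 libraries on the log2 scale, the smallest of the family. Rpl3, at the peptidyl transferase centre, had 7422, 6435 and 4988 in control and 6490, 6962 and 6391 in STZ libraries. Rpl10a had 1563, 1208 and 1170 in control and 1044, 1176 and 1251 in STZ libraries. The fold changes of these genes were −0.01, 0.09 and −0.18, and in each the STZ libraries overlapped the control libraries. Rpl10, which joins the 60S subunit late in its maturation, had 3410, 2609 and 2004 in control and 2272, 1738 and 2168 in STZ libraries, with −0.35 (adjusted p = 0.554). Rpl24 had 2308, 1419 and 1010 in control and 1982, 1488 and 1652 in STZ libraries, with 0.19. Rpl39, a short protein at the tunnel exit, had 705, 405 and 276 in control and 415, 334 and 415 in STZ libraries, with −0.15.

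The names of short loci need care. Of the 67 members, 8 had a locus of at most 1 kb on rn4. For 7 of them, Rpl12, Rpl35a, Rpl36, Rpl41, Rpl6, Rps29 and Rps4x, the RefSeq gene of the same name lies on another chromosome of GRCr8, the later assembly, which held for none of the other members with a RefSeq entry (66 of 67). Those 7 rows may therefore hold reads of a copy rather than of the named gene, and their values are uncertain. The remaining one, Rpl10l, is a retrogene related to Rpl10. Rps4x, counted at chr4:34793784-34794576, had 85.1, 42.7 and 34.5 normalized counts in control and 78.0, 110 and 68.3 in STZ libraries, a log2 fold change of 0.73 (SE 0.33, 95% interval −0.0021 to 1.46, adjusted p = 0.341 by limma). Rpl6, counted at chr6:129220801-129221737, had 80.0, 61.0 and 46.7 in control and 63.1, 107 and 74.3 in STZ libraries, with 0.37. Both had their highest value in STZ 2. The 7 loci of at most 1 kb that were tested had medians of 0.46 in control 1 and −0.51 in control 3, on the same side of 0 as the family. In control 2 and STZ 3 their medians were −0.19 and 0.10, against 0.02 and −0.07 for the family. Control 1 was the highest library for 4 of these 7 loci, against 54 of the 58 longer loci.

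Rpl36, counted at a locus of 365 bp, had 566, 412 and 201 normalized counts in control and 348, 208 and 237 in STZ libraries, with a log2 fold change of −0.48 (adjusted p = 0.59 by limma). Rpl41 had 1069, 662 and 582 in control and 915, 710 and 836 in STZ libraries, with 0.13. Both followed the order of the family within the control group. Rpl10l ran against it, with 16.4, 32.0 and 46.7 in control and 20.4, 28.7 and 35.1 in STZ libraries. The members that were not tested were Rpl35a, with 2.97 to 5.57 normalized counts, and Rpl3l, a muscle form of Rpl3, which had 2 reads in control 2 and none elsewhere, under the limit of 3 reads taken as the floor.

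A comparison across replicate numbers asked whether the order of the libraries followed the numbers 1, 2 and 3 that rats of both groups carry. Replicate 1 had the highest family median of its group in both groups, but the lowest was replicate 3 in control and replicate 2 in STZ rats. In STZ rats the place of replicate 1 depended on the scaling. At equal library totals the highest STZ median was that of STZ 3, at 0.04, and STZ 1 lay at −0.09. With limma's F-test of the replicate number in a model that holds the group, 0 of the 65 genes had an adjusted p under 0.05, against 0.615% of all features. At an unadjusted p under 0.05 there were 12, or 18.5% of the 65, close to the 17.4% of all features. The lowest adjusted p was 0.128, that of Rpl18, with 2023, 1632 and 762 normalized counts in control and 1815, 967 and 1026 in STZ libraries. By edgeR and DESeq2 the count was also 0, against 0.00742% and 0.786% of all features, with 13 at an unadjusted p under 0.05 in each, against 16.7% and 8.25%. With STZ 3 left out, number 3 is held by control 3 alone, the library with the lowest family median. That fit cannot tell replicate number 3 from this single library, so no effect of the number is concluded from it. Without STZ 3, 11 members passed, among them Rplp1, Rps15 and Rpl18, where 1.92% of all features passed.

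The loci are short, from 315 to 6721 bp with a median of 2869 bp, introns included, against a median of 10931 bp over all features. Other features of 1000 to 5000 bp had medians on the same side of 0 as the members in control 1, in control 3 and in the fold change, and nearer to 0. Among other features of 2000 to 3000 bp, the median deviation was 0.18 in control 1 and −0.08 in control 3, against 0.56 and −0.32 for the 21 ribosomal protein genes of that class. The median log2 fold change there was −0.09 for 468 other features and −0.20 for the members. From 1000 to 2000 bp it was −0.09 for 545 other features and −0.32 for 10 members, and from 3000 to 5000 bp it was −0.08 for 791 and −0.18 for 19. From 5000 to 10000 bp the order turned, with −0.04 for 1587 other features and 0.03 for 8 members. Up to 1000 bp the 934 other features were near 0, with 0.00752 in control 3 and 0.00674 for the fold change, against −0.51 and −0.09 for the 7 members. With a lowess trend on locus length taken out of each library, the family median in control 1 went from 0.57 to 0.44, that in control 3 from −0.39 to −0.29, and the median fold change from −0.18 to −0.11.

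**Figure D4:**
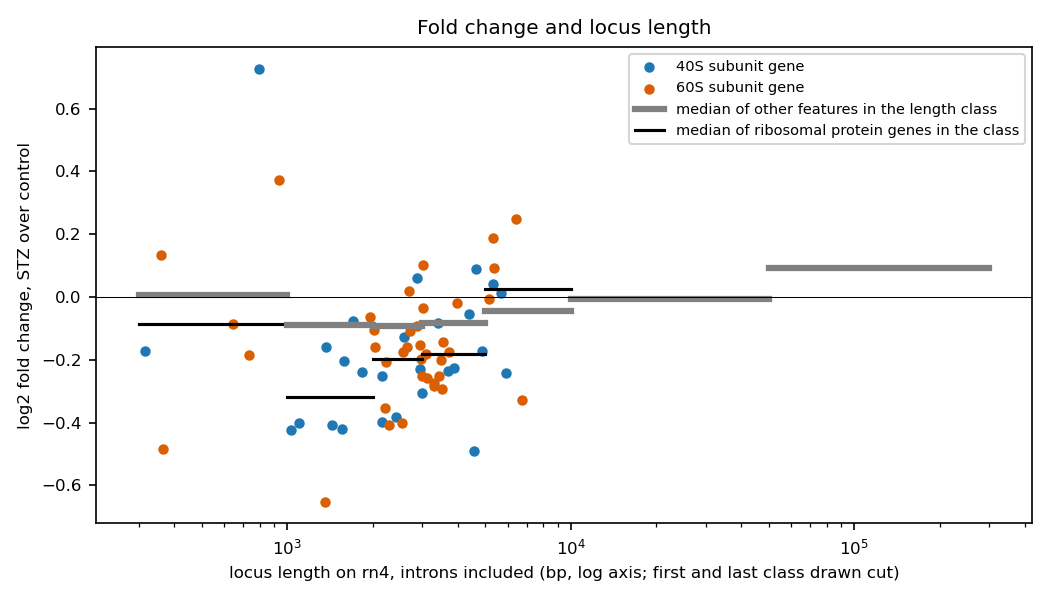
Log2 fold change of STZ over control against locus length on a log axis, for the 65 genes (points). Grey lines give the median of other features in each length class and black lines that of the ribosomal protein genes, which runs from −0.32 at 1000 to 2000 bp to 0.03 at 5000 to 10000 bp.

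Within the family, longer loci tended to have higher fold changes. Across the 58 genes over 1 kb the Pearson correlation of the fold change with the log10 of locus length was 0.51 and the Spearman correlation 0.40, and across all 65 they were 0.05 and 0.21. The Spearman correlation with the mean level was 0.32 across the 58. These genes share their 6 libraries, so the values are descriptions. The drop from control 1 to control 3 hardly followed length among the 58 (Spearman −0.16). The share of reads on all other features of up to 5 kb was 30.1%, 28.6% and 29.0% in control 1, 2 and 3 and 29.4%, 27.7% and 28.4% in STZ libraries, also highest in control 1, and its part in the results was not tested.

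The start of the messages carried the TOP motif more often than other genes did. RefSeq start sites on GRCr8 were at hand for 51 members counted on the same chromosome (52 entries, Rps27a having 2). A C at the first transcribed base followed by 4 bases that are each C or T stood in 21 of the 52 (40.4%) and in 2.63% of all 33469 entries. The search read the transcribed strand at that position alone, and annotated starts can be off by some bases. The windows shown run from 15 bases before the start to 15 bases from it, for members described above, with the pyrimidines that run on from the first transcribed base in capitals.
Rplp1 (chr8:71290858-71290887, minus strand): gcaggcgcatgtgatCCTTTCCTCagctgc
Rplp0 (chr12:46718376-46718405, minus strand): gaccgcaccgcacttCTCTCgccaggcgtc
Rps27 (chr2:177964592-177964621, minus strand): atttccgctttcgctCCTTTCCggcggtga
Rps26 (chr7:1643390-1643419, minus strand): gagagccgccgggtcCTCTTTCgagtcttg
Rpl10 (chrX:157205835-157205864, plus strand): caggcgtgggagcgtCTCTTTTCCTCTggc
Rpl24 (chr11:58128391-58128420, minus strand): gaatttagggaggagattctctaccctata
Rpl5 (chr14:1995211-1995240, minus strand): actctctttcccacgTCgcttgcgtcctgg
The Rplp1, Rplp0, Rps27, Rps26 and Rpl10 windows hold the motif, with runs of 9, 5, 7, 7 and 12 pyrimidines. Those of Rpl24 and Rpl5, whose fold changes were above 0, do not hold it at the annotated start. Rps10 and Rps21, not shown, also lacked it there, with log2 fold changes of −0.49 and −0.42, so the windows shown do not stand for the family. Over the family the difference was small: the 21 genes with the motif had a median log2 fold change of −0.24 and the 29 without it −0.16, and control 1 lay above control 3 by a median of 0.91 and 0.94 on the log2 scale. CCGGAA, the core bound by ETS factors, stood on either strand of the 300 bases around the start in 51.9% of the 52 entries and in 15.0% of all entries. CACGTG, the E-box read by Myc, was in 7.69% and 6.42%.

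Genes that work with the ribosome were described from lists, of which none had a member that passed except the oxidative phosphorylation subunits. Over all features tested, 2.1% passed and control 1 was the highest library for 22.7%, the shares to set beside the counts of each list. Of 15 translation factors and other genes with TOP messages, 0 passed in either direction, the median log2 fold change was −0.08, and control 1 was the highest library for 12. Eef1a1, the elongation factor that delivers tRNA, had 16754, 12843 and 7770 normalized counts in control and 15645, 9628 and 12519 in STZ libraries. As in the family, control 1 was the highest library and control 3 the lowest. Of 31 ribosome biogenesis factors tested, 0 passed, 27 had a fold change below 0, and the median was −0.26. Ncl, the nucleolar protein nucleolin, had 358, 278 and 140 in control and 220, 145 and 232 in STZ libraries. Control 1 was the highest library for 17 of the 31.

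Of 12 mTOR and Myc regulators tested, 0 passed, the median log2 fold change was 0.05, and control 1 was the highest library for 2. Their median deviation was −0.13 in control 1 and −0.17 in control 3, its lowest library. Mtor had 109, 147 and 167 normalized counts in control and 107, 164 and 170 in STZ libraries. Rps6kb1, the kinase of Rps6, had 133, 107 and 129 in control and 175, 163 and 158 in STZ libraries. Its groups did not overlap, as for 20.3% of all features tested, and its adjusted p was 0.324 by limma (log2 fold change 0.43, SE 0.19). Of 5 genes of the p53 axis tested, 0 passed, with a median of 0.23 in control 1, their highest library, and Mdm2 had 353, 279 and 445 in control and 376, 343 and 267 in STZ libraries.

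Other families of widely used genes were also highest in control 1, with their lowest medians in STZ 3 and, nearly as low, in control 3. For the 61 mitochondrial ribosomal proteins, encoded in the nucleus for the separate ribosome of mitochondria, the family median was 0.28 in control 1, −0.15 in control 3 and −0.17 in STZ 3, with control 1 highest for 37. For 56 subunits of oxidative phosphorylation it was 0.36, −0.16 and −0.19, with control 1 highest for 44. Control 1 was highest for 22.7% of all features tested. The ribosomal protein genes lay at −0.07 in STZ 3. Between STZ and control, 0 of the 61 mitochondrial ribosomal proteins and 1 of the 56 subunits passed, against 2.1% of all features tested. Ndufv3, a subunit of complex I, was the 1 subunit of oxidative phosphorylation that passed, falling from 820, 749 and 508 in control to 365, 280 and 286 in STZ libraries (log2 fold change −1.14, adjusted p = 0.027 by limma).

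**Figure D5:**
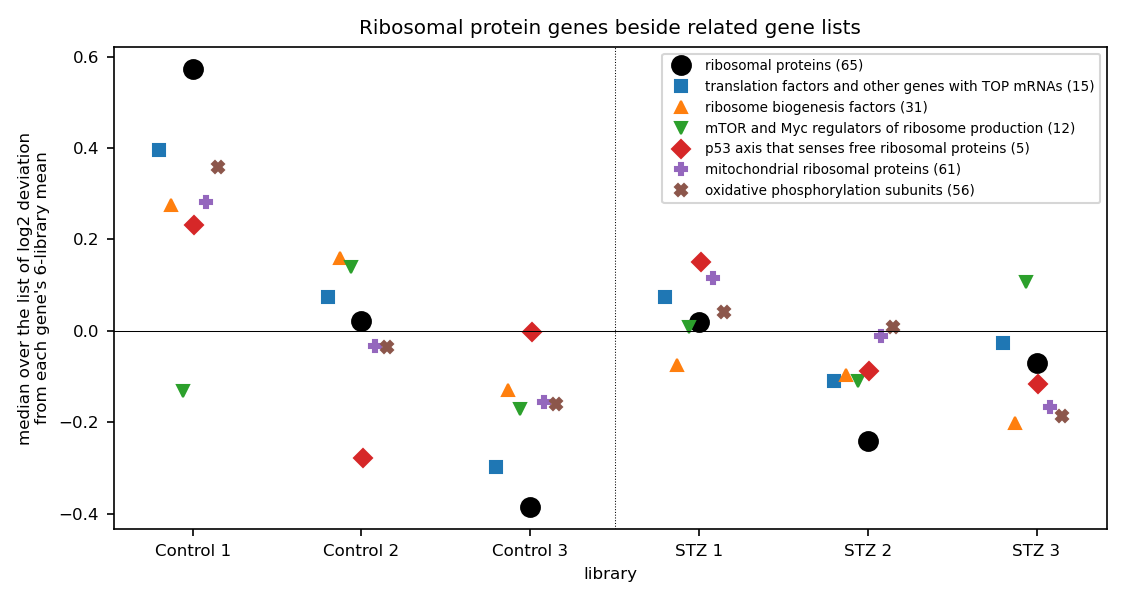
Median log2 deviation from the 6-library mean of each gene, per library, for the 65 ribosomal protein genes (black circles) and 6 related lists, with the number of genes tested in brackets. The ribosomal protein genes lie highest in control 1 (0.57) and lowest in control 3 (−0.39), and the mTOR and Myc regulators lie below 0 in both.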

How the data were processed

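The authors aligned reads to rn4 with STAR 2.3.1t, counted uniquely mapped reads per gene and normalized them with DESeq 1.16.0. Which program counted the reads, and whether by strand, is not given in the sources used here. The deposited signal is the count divided by 1 size factor per library. It comprises 27321 features, of which 2720 join gene names by a comma and 527 by a plus sign. Rows that join a ribosomal protein name to another by a comma reached a mean of at most 15.8 normalized counts and are no members. Rps25+Ccdc84, joined by a plus sign and also no member, was higher. It had 3248, 1998 and 1665 in control and 2281, 1747 and 1913 in STZ libraries. Dividing by the smallest step of each library gave whole reads for 100% of values (tolerance 0.01). PCR reads without molecular identifiers are not independent molecules, so the floor of 3 reads covers counting error only.

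limma 3.58.1 in R 4.3.3 was fitted to log2(normalized count + 1) with an intensity trend, over all 13486 features with a mean of at least 5. Benjamini-Hochberg adjusted p-values under 0.05 passed, and fold changes are on this log2 scale, which understates low genes. Replicate numbers were compared by an F-test in a model of group and number. On the recovered reads, edgeR 4.0.16 (TMM, quasi-likelihood) and DESeq2 1.42.0 were alternatives, beside pseudocounts of 0.5 and 5, minimum means of 1 and 20, no filter, equal library totals, quantile normalization, no trend, the replicate number as a block, a lowess correction for locus length (span 0.3), and each library left out. The fits were tested on simulated data. Figures were drawn with matplotlib 3.10.9.

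The members and the lists were chosen with earlier results of these data known, so lists are described by counts and medians without a test. Members named are those with the 5 highest and 5 lowest fold changes, the 5 largest and 5 smallest spreads over the 6 libraries, and a list by role; members passing either fit would have been named, and there were none. A part of the rule on levels per coding length was not used, because transcript lengths were not used here; levels are not compared between genes. Rpl10l, Rpl18, Rpl35a, Rps29, Rpl12, genes of the lists that did not pass and rows outside the name rule were named after their values were seen. Promoter sequences are from RefSeq (GRCr8), and coordinates of counted loci are those of rn4 in the deposited table. The values of 1 member are not reported singly here, and it is left out of the plots that name each gene; it is kept in every count and median. RefSeq gene names of GRCr8 matched 66 of the 67 members.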

Additional observations from a re-analysis of the deposited data

How the results depend on the processing

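Between STZ and control, 0 ribosomal protein genes passed in the fit reported and in all 19 alternatives. Their median log2 fold change of −0.18 stayed between −0.24 and −0.11 in the alternatives that kept all libraries. Leaving out each library in turn it ran from −0.40 to 0.0540, the positive value without control replicate 1. The difference in the share of reads, −0.469 percentage points, ran from −0.776 to −0.0966 with single libraries left out. The value of −0.0966, still below 0, is that without control replicate 1. Across replicate numbers, 0 members passed, with 1 (Rpl18) without a filter and from 0 to 11 with single libraries left out; 11 is the value without STZ replicate 3. The cause of these shifts was not tested. With a library left out, its replicate number is held by 1 library, so those counts cannot tell the number from that library.

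Between STZ and control, none of the 26 named members passed under any alternative, with adjusted p between 0.0552 and 0.999. Of their 494 values under alternatives, 27 had the opposite sign. With the locus length correction, with or without the block, Rpl23 was 0.0572, Rpl4 0.0499 and Rps2 0.00211. Rps19 was −0.00455 with DESeq2 and −0.0176 with equal library totals. With single libraries left out the log2 fold changes that changed sign ran, for Rpl23 from −0.31 to 0.33, for Rpl24 from −0.0939 to 0.50, for Rpl3 from −0.0643 to 0.22, for Rpl39 from −0.47 to 0.21, for Rpl4 from −0.0965 to 0.10, for Rpl41 from −0.0444 to 0.39, for Rps19 from −0.0759 to 0.18, for Rps2 from −0.20 to 0.0398, for Rps27a from −0.55 to 0.0719, for Rps3 from −0.16 to 0.23 and for Rps6 from −0.0505 to 0.20. Those that kept their sign ran, for Rpl10 from −0.54 to −0.16, for Rpl10a from −0.25 to −0.0434, for Rpl11 from −0.51 to −0.0725, for Rpl36 from −0.90 to −0.16, for Rpl5 from 0.0821 to 0.45, for Rpl6 from 0.16 to 0.56, for Rplp0 from −0.46 to −0.10, for Rplp1 from −1.09 to −0.32, for Rps10 from −0.87 to −0.24, for Rps15 from −0.81 to −0.11, for Rps21 from −0.74 to −0.12, for Rps26 from −0.61 to −0.18, for Rps27 from −0.59 to −0.13, for Rps4x from 0.46 to 1.10 and for Rpsa from −0.54 to −0.0614.

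By their labels the samples share only a number. After subtracting group means, libraries of number 1, 2 and 3 had r = 0.574, −0.0148 and 0.496 between the groups over 13486 features. Not every library correlated best with its own number. Olfactory receptor genes took 0.0075%, 0.0222% and 0.0384% of the reads on genes in control 1, 2 and 3. In STZ 1, 2 and 3 they took 0.0075%, 0.0239% and 0.0376%. Features with a read numbered 18268, 20881 and 20453 in control and 18212, 19885 and 21064 in STZ libraries. The part of these likenesses by number in the results was not tested. Adding the number as a replicate block raised the calls by limma from 283 to 561 features, and 0 members as before; their median was −0.18 with the block and −0.11 with the block and the length correction. With 3 libraries a group, a median SE of 0.26 limits what could be detected.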

Other observations

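Rows with UniProt entry names such as RS5_RAT also carry ribosomal proteins, outside the name rule, and were looked at after the data were seen. There were 16, of which 15 had a mean of at least 5 normalized counts, and none passed between STZ and control by limma. Of those longer than 1 kb, RS5_RAT was highest in control 1 and lowest in control 3, as the family median was. It had 3220, 2280 and 1585 normalized counts in control 1, 2 and 3 and 2137, 1818 and 2144 in STZ 1, 2 and 3. RL7A_RAT, the other one, was highest in control 2 and lowest in STZ 3, with 2570, 2686 and 1516 and then 1589, 1527 and 1481. Control 1 was the highest library for 5 of the 13 tested rows of at most 1 kb.

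Of the 13 tested UniProt-named rows of at most 1 kb, 5 had their highest value in control 1 and 3 in STZ 2. STZ 1 and STZ 3 were highest for 2 each and control 3 for 1. Rps4x and Rpl6 were also highest in STZ 2. STZ 2 was the highest library for 13.5% of all features tested, and 3 of 13 rows are too few to set against that share. The rows given next were picked because STZ 2 was their highest library. RS18_RAT, counted at chr10:106078191-106078650, had 109, 130 and 59.0 normalized counts in control and 101, 367 and 138 in STZ libraries. RS7_RAT (chr5:169076314-169076899) had 89.2, 64.1 and 69.0 in control and 78.0, 161 and 87.3 in STZ libraries. The genes Rps18 and Rps7 themselves, at longer loci, were not highest in STZ 2: Rps18 had 5103 there against 8189 in control 1, and Rps7 had 1259 against 2115. Rpl32-ps1, named as a pseudogene and outside that class at 1032 bp, had 187, 137 and 99.1 in control and 129, 259 and 97.4 in STZ libraries.

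Rpl7l1, a relative of Rpl7 outside the rule, had 508, 428 and 381 normalized counts in control and 294, 309 and 307 in STZ libraries. Its groups did not overlap, as for 20.3% of all features tested, and its adjusted p was 0.187 by limma.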
